A study of Mus musculus with 7 samples.

Results

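RNA of epidermal cells from the ear of Koa mice was set against RNA of epidermal cells from the back (dorsal skin) of wild-type (WT) mice, gene by gene. The comparison took every gene with at least 1 FPKM (a count of sequenced fragments divided by transcript length and library size) in either library, which gave 12492 of the 22552 gene symbols. Each group was 1 library of total RNA from cells purified by flow sorting of skin at postnatal day 50, and all groups carry the strain label CD1/C3H. The ear cells carried 1 Koa allele (genotype Wt/Koa) and the dorsal cells none (Wt/Wt). Koa is a dominant allele with an inversion of distal chromosome 15 and hairy ears. The number of animals behind a library, the sort markers and the stage of the hair cycle are not given in the sources used here. The series holds 7 such RNA libraries. WT ear epidermis (Wt/Wt) shares its region with one library compared and its genotype with the other, so its level is printed beside both. Where 3 FPKM levels follow one another without names, they are those of Koa ear, WT dorsal and WT ear epidermis, in that order.

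The 2 libraries differ in genotype and in body region at once, and these cannot be told apart in their difference. With 1 library per group there is no replicate check on any difference, no test between conditions and no p-value. Differences are Koa ear minus WT dorsal on the log2(FPKM + 1) scale, which understates the change of low genes. A gene is called higher or lower where it differs by at least 1 on that scale, the size rule. A gene that reached 1 FPKM through one library alone is higher there by that choice, so counts over lists of low genes are a description. Values for WT ear against WT dorsal and for Koa against WT ear are not independent of it, since each shares a library with it.

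Epidermis is built of keratinocytes that divide in a basal layer and mature upward into a cornified barrier, with a keratin pair for each stage. Hair follicles and sebaceous glands grow from the same epithelium: an active follicle makes an inner root sheath and a hair shaft from their own keratins, and a sebaceous gland fills its cells with lipid. Hox genes, transcription factors in 4 clusters, record the position of skin along the body axis.

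The keratin genes of the inner root sheath, a transient mould around the growing hair, and the immediate early genes, whose transcription starts within minutes of a stimulus, stood on opposite sides of the comparison, with medians given below. The promoter windows of a pair of genes from each are shown with a motif found in most windows of each group. They run from 250 bases before to 50 bases after a RefSeq transcript start (GRCm38.p6). Capitals mark TATAAA, the TATA box, in the keratin windows and TGACG, the core of the cyclic AMP response element TGACGTCA, in the early gene windows. Both motifs were searched on both strands, and the capitals in Nr4a1 read TGACG on the opposite strand.

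Krt71, chr15:101743048-101743347, minus strand: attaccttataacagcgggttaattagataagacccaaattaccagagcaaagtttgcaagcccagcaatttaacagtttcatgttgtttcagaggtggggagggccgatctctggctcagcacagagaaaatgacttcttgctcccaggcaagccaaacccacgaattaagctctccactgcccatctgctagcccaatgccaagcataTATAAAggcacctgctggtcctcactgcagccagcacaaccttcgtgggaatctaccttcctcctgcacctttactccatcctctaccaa

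Krt25, chr11:99322902-99323201, minus strand: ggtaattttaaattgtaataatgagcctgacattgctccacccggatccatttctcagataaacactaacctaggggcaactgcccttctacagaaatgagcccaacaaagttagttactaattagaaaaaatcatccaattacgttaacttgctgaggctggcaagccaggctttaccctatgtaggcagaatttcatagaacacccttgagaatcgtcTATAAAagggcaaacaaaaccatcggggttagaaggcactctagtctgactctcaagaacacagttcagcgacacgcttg

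Nr4a1, chr15:101266596-101266895, plus strand: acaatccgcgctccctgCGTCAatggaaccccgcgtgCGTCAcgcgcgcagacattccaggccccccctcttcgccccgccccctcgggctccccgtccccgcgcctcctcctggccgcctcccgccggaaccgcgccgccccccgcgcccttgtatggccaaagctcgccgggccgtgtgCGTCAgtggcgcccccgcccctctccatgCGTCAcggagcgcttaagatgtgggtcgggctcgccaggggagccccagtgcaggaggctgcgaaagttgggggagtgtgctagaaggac

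Fos, chr12:85473640-85473939, plus strand: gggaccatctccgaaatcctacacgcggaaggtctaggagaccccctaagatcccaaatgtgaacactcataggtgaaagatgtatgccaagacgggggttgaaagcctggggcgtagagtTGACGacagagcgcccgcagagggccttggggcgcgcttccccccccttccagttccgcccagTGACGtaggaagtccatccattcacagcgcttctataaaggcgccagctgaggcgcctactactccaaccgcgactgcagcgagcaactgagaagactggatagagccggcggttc

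TATAAA began 40 bases before the start in Krt71 and 30 bases before it in Krt25. Of the inner root sheath genes at 1 FPKM or more, 5 of 7 windows held TATAAA, as did 4 of the 5 hair shaft keratin windows on file, against 9.08% of the 8725 windows of genes in the comparison and 15.7% of 27025 genes with a window. TGACG was found 4 times in the Nr4a1 window and 2 times in the Fos window, and in 13 of the 20 immediate early genes with a window, against 35.4% of the genes in the comparison and 23% of all. The full element TGACGTCA was in 3 of those 20, against 3.71% of the genes in the comparison. TATAAA was also in 3 of the 20, the Fos window among them, where it is left in lower case. TATAAA and TGACG were chosen from several motifs searched. Over all genes past the size rule, TATAAA was in 12.9% of windows of genes higher in Koa ear and 16.9% of those of lower genes. For TGACG these shares were 20.9% and 34%. A match of letters is a description of the sequence and not evidence of binding.

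The libraries were of like depth. Between 31.6 and 40.3 M (mega) fragments were recovered from the steps of the FPKM values in the 3 epidermal and 3 dermal libraries used here, and 11849 genes stood at 1 FPKM or more in Koa ear, 12128 in WT dorsal and 11600 in WT ear epidermis. The labelled cell type was borne out by its markers. The 12 basal keratinocyte genes summed to 15100 FPKM in Koa ear and 12300 FPKM in WT dorsal epidermis, against 814 to 4150 FPKM in the dermal libraries of the same skin. The fibroblast and dermal matrix genes summed to 150 and 256 FPKM, against at least 17000 FPKM in those dermal libraries, in which Col1a2 and Col3a1 are listed at 0 and the sums are therefore too low. No mast cell gene reached 1 FPKM in either library compared. The cartilage matrix genes Acan, Col2a1, Col9a1 and Col11a1 were under 0.1 FPKM in both.

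Of the 12492 genes, 439 were higher in Koa ear (3.51%) and 1096 were lower (8.77%). The median difference was 0.02, with quartiles of -0.39 and 0.36. Without the 219 short RNAs, for which a few fragments give a high FPKM, the counts were 370 and 1014 of 12273. At a difference of at least 2 the counts were 98 and 311, and at a difference of at least 3 they were 64 and 128. The same genes gave 647 higher (5.18%) and 1435 lower (11.5%) for WT ear against WT dorsal, and 259 higher (2.07%) and 77 lower (0.616%) for Koa against WT ear. Just inside the size rule lay Chaf1b, at 18.6 FPKM in Koa ear and 8.77 FPKM in WT dorsal, and Rplp2, at 1089 and 2180.1 FPKM. Just outside it lay Pan2, at 18.6 and 8.82 FPKM, and Phldb3, at 21 and 42.9 FPKM.

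**Figure D1:**
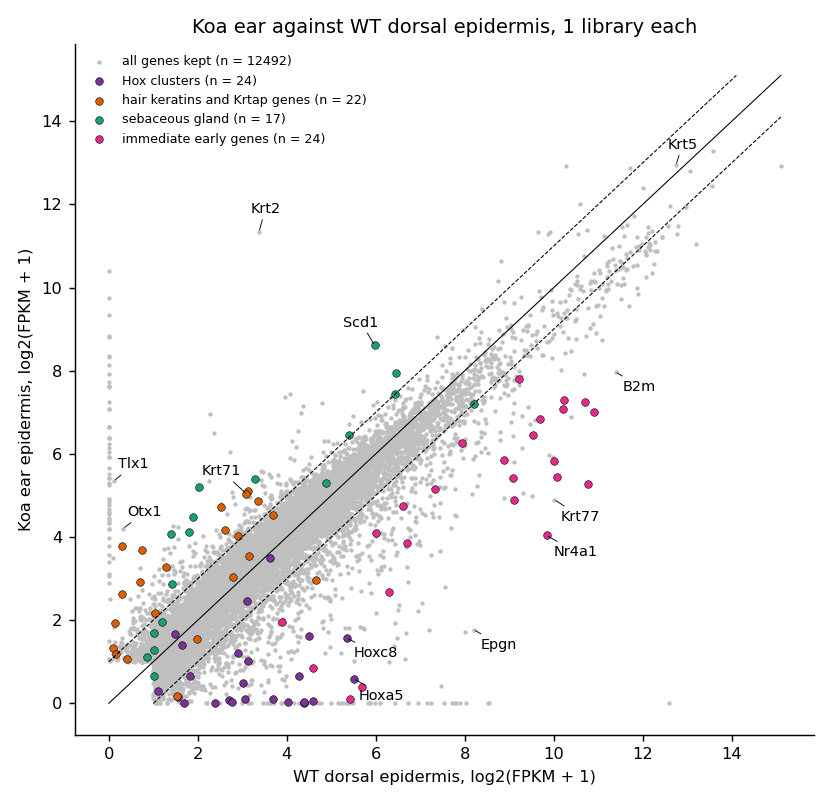
Level of each of the 12492 genes in WT dorsal epidermis (x axis) and Koa ear epidermis (y axis), both log2(FPKM + 1), 1 library each. The solid line marks equal levels and the dashed lines a difference of 1. The 24 immediate early genes lie below the lower dashed line, hair keratins and sebaceous gland genes lie mostly above the upper one, and Krt2 stands far above it.

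The transcript length of a gene went with its difference, which bears on the short-transcript families below. Among genes with 1 RefSeq transcript, the median difference was -0.59 for the 458 genes with transcripts of 300 to 1000 nt, of which 25.1% were lower. It was -0.20 for the 1322 of 1000 to 2000 nt, 0.01 for the 2151 of 2000 to 4000 nt, and 0.25 for the 1630 at 4000 nt or more, of which 4.23% were lower. WT ear against WT dorsal gave medians of -0.38, -0.13, -0.01 and 0.18 in the same classes. Koa against WT ear gave -0.24, -0.08, 0.01 and 0.07. The part of transcript length in the differences of single genes was not tested.

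Most Hox genes that marked the back were low in the Koa ear. The 9 Hoxc genes lie on chromosome 15 from Hoxc13 (start 102921131) to Hoxc4 (end 103036856). Of these, 5 reached 1 FPKM in either library, 4 of which were lower in Koa ear while the fifth differed by -0.12. Hoxc4, Hoxc5 and Hoxc6 reached it through WT dorsal alone, so the filter fixed their direction. Hoxc8, a gene of the trunk, stood at 1.97 FPKM in Koa ear, 39.8 FPKM in WT dorsal and 0.171 FPKM in WT ear epidermis. The dorsal level was 20.2 times that of Koa ear, with an exact 95% counting interval of 16.8 to 24.6, and the Koa ear level in turn lay above that of WT ear. Such intervals cover counting error only, not variation between animals. Hoxc6 followed the same order, at 0.590 FPKM in Koa ear, 18.3 FPKM in WT dorsal and 0.0178 FPKM in WT ear epidermis, and its dorsal level was 30.8 times that of Koa ear (21.3 to 46.3).

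The other Hoxc genes varied in level and order. Hoxc4 stood at 0.397 FPKM in Koa ear, 7.08 FPKM in WT dorsal and 0.445 FPKM in WT ear epidermis, and Hoxc5 at 0.570, 2.52 and 0.656 FPKM in the same order, so both ears lay close together and below the back. The dorsal to Koa ear ratio was 17.8 (11.9 to 27.9) for Hoxc4 and 4.41 (3.27 to 6.04) for Hoxc5. Hoxc9 was under 1 FPKM in all 3, with 21 fragments in Koa ear and 63 in WT dorsal, and was listed at 0 in WT ear. Hoxc10 had 2 and 23 fragments and was likewise listed at 0 in WT ear. Hoxc11, with 3 fragments in each WT library, and Hoxc12, with 5 in WT dorsal, were listed at 0 in Koa ear. Hoxc13, the cluster's factor of the hair shaft and nail, stood apart from its neighbours at 10.3 FPKM in Koa ear, 11.2 FPKM in WT dorsal and 6.52 FPKM in WT ear epidermis. Its dorsal to Koa ear ratio of 1.10 had an interval of 0.992 to 1.21, which takes in equality.

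Genes of the other Hox clusters were also lower in the Koa ear than on the back. Of 9 Hoxb genes at 1 FPKM or more, 8 were lower in Koa ear, with a median of -2.95. Hoxb1 and Hoxb4 to Hoxb9 reached 1 FPKM through WT dorsal alone, so the filter fixed their direction. Hoxb7 stood at 0.0265 FPKM in Koa ear, 19.8 FPKM in WT dorsal and 0.0232 FPKM in WT ear epidermis, and Hoxb8 at 0.0231 FPKM in Koa ear and 15.4 FPKM in WT dorsal while listed at 0 in WT ear. Hoxb6 stood at 19.9 FPKM in WT dorsal and was listed at 0 in Koa ear. A listed 0 can be a failed estimate in this table, in which Hmgcs1, a gene that every cell uses, is listed at 0 in the epidermal libraries, so no fold is given. Hoxb2, at the head end of the cluster, kept a measurable level in the ears, 2.06 FPKM in Koa ear, 21.8 FPKM in WT dorsal and 4.65 FPKM in WT ear epidermis.

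Of 8 Hoxa genes at 1 FPKM or more, 5 were lower in Koa ear (median -1.68). Hoxa5, Hoxa6, Hoxa7 and Hoxa9 reached that level through WT dorsal alone, so the filter fixed their direction. Hoxa5 stood at 0.506 FPKM in Koa ear, 44.9 FPKM in WT dorsal and 0.917 FPKM in WT ear epidermis, a dorsal level 88.7 times that of Koa ear (61.9 to 132). Hoxa7 stood at 0.0323, 23.3 and 0.496 FPKM in the same order. Hoxa3 stood at 1.30, 6.45 and 1.34 FPKM and was lower by the size rule, while Hoxa2 (4.53, 7.57 and 4.59 FPKM) and Hoxa4 (1.64, 2.15 and 2.71 FPKM) differed by less. Of 9 Hoxd genes, 2 reached 1 FPKM, Hoxd8 (0.0231 and 5.82 FPKM in Koa ear and WT dorsal) and Hoxd9 (0.119 and 1.95 FPKM), both through WT dorsal alone.

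A pair of homeobox genes outside the clusters had the opposite pattern. Tlx1, on chromosome 19, stood at 39.8 FPKM in Koa ear, 0.0864 FPKM in WT dorsal and 37.3 FPKM in WT ear epidermis, and the dorsal value rested on 5 fragments. Otx1, known from development of the head, stood at 17.5 FPKM in Koa ear, 0.253 FPKM in WT dorsal and 14.4 FPKM in WT ear epidermis. Both ear libraries were high and the dorsal one was near 0. Among 20 positional factors at 1 FPKM or more outside the Hox clusters, Tlx1 and Otx1 were the 2 that were higher, and 3 were lower. Over all genes in the comparison 3.51% were higher and 8.77% lower. Of the 2 libraries compared, Tlx1 and Otx1 reached 1 FPKM in Koa ear alone, so the filter fixed their direction. The lower ones were Lhx2 (24.8, 72.3 and 19.4 FPKM, in the order Koa ear, WT dorsal, WT ear), a factor of follicle stem cells, Irx5 (12.4, 37.1 and 13.6 FPKM) and Irx2 (49.4, 109 and 41.1 FPKM).

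Of the genes near the ends of the Koa inversion, few passed the size rule. The same held for all 12492 genes, of which 3.51% were higher and 8.77% lower. Of 14 expressed genes beside the Hoxc cluster, 1 was lower and none higher. That gene, Hnrnpa1, which encodes a splicing protein, stood at 52 FPKM in Koa ear, 113 FPKM in WT dorsal and 50.8 FPKM in WT ear epidermis. The median of the 14 was -0.01 (0.02 with libraries scaled to equal upper quartiles). None of 6 expressed genes around Trps1 passed the size rule, with a median of -0.22, and Trps1 itself, a repressor that acts in hair growth, stood at 3.16 FPKM in Koa ear, 2.19 FPKM in WT dorsal and 3.34 FPKM in WT ear epidermis. Over chromosome 15 as a whole, 3.59% of genes were higher and 9.87% lower, shares near those of all genes. Chromosome 17, which holds the histocompatibility genes, had the highest share of lower genes, 13.3%, and the X chromosome the lowest, 5.78%.

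**Figure D2:**
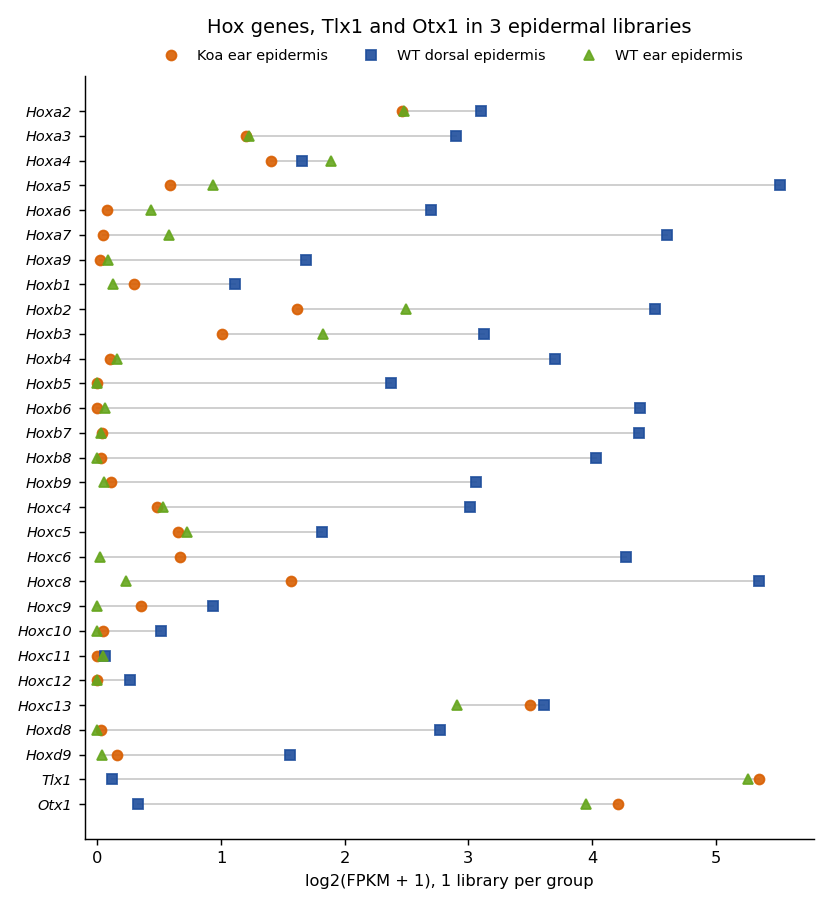
Levels of 27 Hox genes, Tlx1 and Otx1 (rows) in Koa ear (circles), WT dorsal (squares) and WT ear epidermis (triangles), as log2(FPKM + 1), 1 library per group. Most Hox genes are highest in WT dorsal, Hoxc8 and Hoxc6 in Koa ear lie between the other libraries, Hoxc13 is near its dorsal level in Koa ear, and Tlx1 and Otx1 are near 0 in WT dorsal.

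Genes of the growing hair stood higher in the Koa ear than on the back. Of 7 inner root sheath and companion layer genes at 1 FPKM or more, 4 were higher and 0 lower (median 1.11). Krt71, whose window is shown above, stood at 31.9 FPKM in Koa ear, 7.55 FPKM in WT dorsal and 0.930 FPKM in WT ear epidermis, a Koa ear level 4.22 times that of the back (3.82 to 4.67). Its partner Krt25 stood at 33.3 FPKM in Koa ear, 7.81 FPKM in WT dorsal and 1.88 FPKM in WT ear epidermis, a ratio of 4.27 (3.85 to 4.73). In both genes the order was Koa ear, then WT dorsal, then WT ear.

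Tchh, the gene of trichohyalin that hardens the root sheath, stood at 25.2 FPKM in Koa ear, 4.76 FPKM in WT dorsal and 4.46 FPKM in WT ear epidermis. Krt27 stood at 15.2, 6.50 and 4.71 FPKM in the same order, while Krt28 (10.8, 7.93 and 1.79 FPKM) and the companion layer keratin Krt75 (22.2, 11.9 and 0.743 FPKM) differed from the back by less than the size rule. WT ear was the lowest of the 3 epidermal libraries in 7 of these 7 genes. Against the back, WT ear had none higher and 5 lower (median -1.68), and Koa against WT ear had 7 higher (median 2.26). In these bulk libraries, fewer cells of a type and less RNA per cell cannot be told apart.

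Hair shaft keratins leaned the same way. Of 10 at 1 FPKM or more, 8 were higher and 1 lower, with a median of 1.37. Krt83, Krt36, Krt84, Krt86 and Krt33b reached 1 FPKM in Koa ear alone, so the filter fixed their direction. Krt85, Krt35 and Krt31 reached it in both libraries. Krt85 and Krt35, made early in the shaft, stood at 16.9 FPKM in Koa ear, 5.12 FPKM in WT dorsal and 0.798 FPKM in WT ear epidermis, and at 28.2, 9.23 and 1.91 FPKM in the same order. Krt31, a keratin of the shaft cortex, stood at 8.69, 1.44 and 0.917 FPKM, and Krt83 at 5.20, 0.234 and 0.259 FPKM. The last differed in kind from Krt85, since its WT dorsal and WT ear levels were close together. Krt32, a cuticle keratin, was the exception: it stood at 6.88 FPKM in Koa ear, 24.3 FPKM in WT dorsal and 8.64 FPKM in WT ear epidermis, lower in both ears.

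Of 51 genes of keratin-associated proteins, which cross-link the shaft keratins, 24 were listed at 0 in both libraries and 5 reached 1 FPKM in either, 3 of them higher and 1 lower. Krtap7-1 stood at 12.7 FPKM in Koa ear, 0.227 FPKM in WT dorsal and 0.237 FPKM in WT ear epidermis, Krtap8-1 at 11.9, 0.674 and 0.726 FPKM and Krtap11-1 at 6.53, 0.628 and 0.277 FPKM, each at 1 FPKM or more in Koa ear alone, so that the filter on low values fixed their direction. Krtap3-2 went the other way, at 0.136, 1.91 and 0.0299 FPKM. Members of this family resemble each other in sequence, so their single values are uncertain.

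Factors of the hair matrix, which divides to form the shaft, were mixed. Of 21 matrix factors and shaft enzymes, 3 were higher and 3 lower, with a median of 0.10. Over all genes in the comparison 3.51% were higher and 8.77% lower. The 3 higher ones were enzymes or adhesion genes of the shaft: Tgm3, the transglutaminase that cross-links hair proteins, at 39.9 FPKM in Koa ear, 3.76 FPKM in WT dorsal and 35.1 FPKM in WT ear epidermis and so high in both ears, the deiminase gene Padi3 at 2.79, 0.452 and 0.0778 FPKM and the desmoglein gene Dsg4 at 2.50, 0.424 and 0.113 FPKM. Padi3 and Dsg4 reached 1 FPKM in Koa ear alone, so the filter fixed their direction. The regulators Foxn1 (3.66, 2.35 and 1.72 FPKM), Msx2 (13.1, 8.82 and 12.4 FPKM) and Lef1 (1.99, 2.13 and 0.824 FPKM) differed from the back by less than the size rule. Shh, the ligand that the matrix secretes, was lower in Koa ear, at 0.309 FPKM in Koa ear, 4.25 FPKM in WT dorsal and 0.0703 FPKM in WT ear epidermis, and so were Ovol1 (10.8, 67.3 and 10.3 FPKM) and Gata3 (72.4, 155 and 56.1 FPKM), a factor of the inner root sheath. Shh reached 1 FPKM through WT dorsal alone, so the filter fixed its direction.

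Outside those lists, Gjb2, a gap junction gene, stood at 45 FPKM in Koa ear, 11.1 FPKM in WT dorsal and 1.96 FPKM in WT ear epidermis, in the order seen for Krt71. The peptide transporter gene Slc15a2 stood at 10.2, 0.0747 and 0.0195 FPKM. Of 21 hair follicle stem cell and upper follicle genes, 5 were lower and none higher, with a median of -0.51. The other 16 differed by less than the size rule. Cd34, a surface marker of bulge stem cells, stood at 21.9 FPKM in Koa ear, 65.9 FPKM in WT dorsal and 10.4 FPKM in WT ear epidermis. Krt15, a keratin of the bulge, stood at 3946, 8000.1 and 2819 FPKM, and the growth factor gene Fgf18, which acts in the resting phase, at 7.66, 29.6 and 8.29 FPKM. Krt17, a keratin of follicle and of stressed epidermis, stood at 479, 1987 and 306 FPKM.

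**Figure D3:**
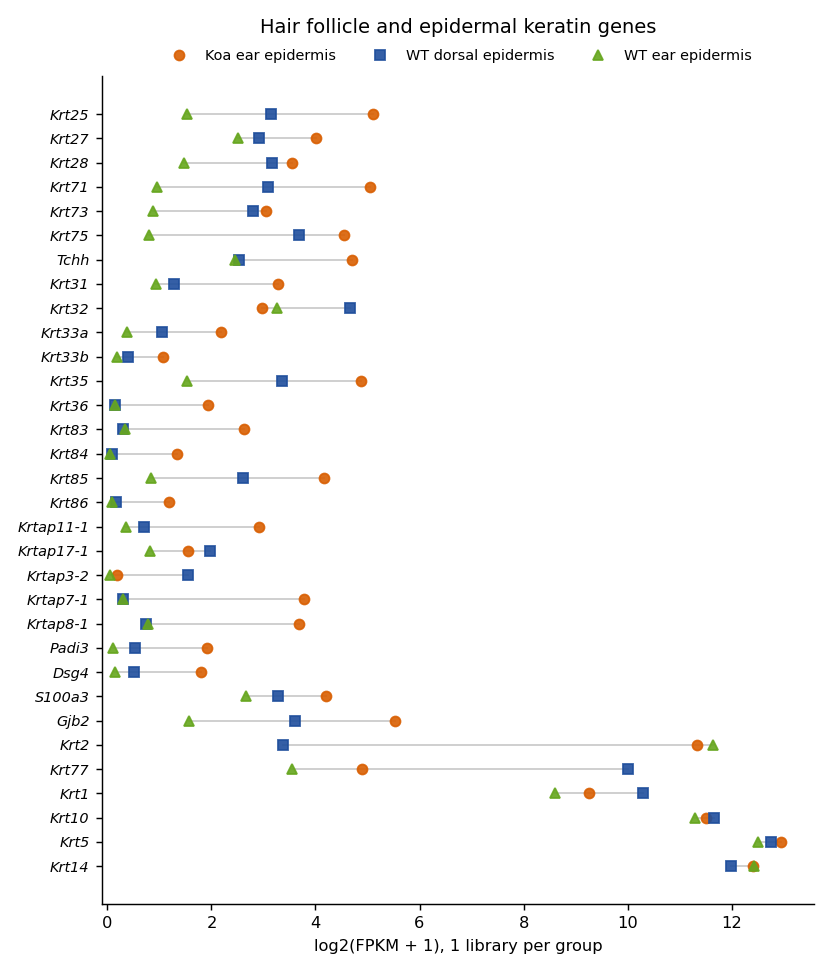
Levels of hair follicle genes and 6 epidermal keratins (rows) in Koa ear (circles), WT dorsal (squares) and WT ear epidermis (triangles), as log2(FPKM + 1), 1 library per group. Most hair genes are highest in Koa ear and lowest in WT ear, Krt32 is highest in WT dorsal, Krt2 is high in both ears and Krt77 is high in WT dorsal.

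Among keratins of the suprabasal layers, Krt2 and Krt77 were opposite between ear and back, while Krt10 was high in all 3 libraries. Krt2, a type II keratin of late suprabasal cells known from ear, sole and tail epidermis, stood at 2591 FPKM in Koa ear, 9.40 FPKM in WT dorsal and 3174 FPKM in WT ear epidermis. Its Koa ear level was 276 times the dorsal one (256 to 297), the widest difference on the log2(FPKM + 1) scale, though not the widest ratio, of any gene that was not a short RNA and reached 5 FPKM. Krt77, a type II keratin near it on chromosome 15 (101858731 to 101869706, with Krt2 at 101810689 to 101818956), went the opposite way. Krt77 stood at 28.8 FPKM in Koa ear, 1034 FPKM in WT dorsal and 10.7 FPKM in WT ear epidermis, a dorsal to Koa ear ratio of 35.9 (34.6 to 37.3). Krt1 itself stood at 614, 1248 and 386 FPKM and its partner Krt10 at 2924, 3219 and 2495 FPKM in the same order. Both ears shared the pattern of Krt2 and Krt77.

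Basal genes were close in all libraries. Of 12, Itga6, an integrin subunit of the hemidesmosome, was higher (165 FPKM in Koa ear, 80.1 FPKM in WT dorsal and 125 FPKM in WT ear epidermis) and none was lower, with a median of 0.38. Krt5 stood at 7883, 6878 and 5801 FPKM and Krt14 at 5418, 4082 and 5518 FPKM. Of 13 desmosome genes, 2 were higher, Dsc2 (6.07, 2.41 and 1.46 FPKM) and the hair gene Dsg4 given above, which passed the filter through Koa ear alone.

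Differentiation genes had more lower than higher members, as did all genes in the comparison (8.77% lower and 3.51% higher). Of 14 suprabasal genes, 7 were lower and 1, Krt2, was higher (median -0.71). The secreted proteins dermokine (Dmkn, 344 FPKM in Koa ear, 1221 FPKM in WT dorsal and 343 FPKM in WT ear epidermis) and suprabasin (Sbsn, 318, 991 and 169.5 FPKM) were among the lower ones. Of 17 cornified envelope genes, 3 were lower and 1 higher (median -0.18): loricrin (Lor), the main envelope protein, stood at 10.9, 31.3 and 10.1 FPKM, and repetin (Rptn) at 7.77, 3.29 and 3.95 FPKM. Small proline-rich protein genes were lower in 3 of 3, with Sprr1a at 90.3, 346 and 93.3 FPKM. Of 14 kallikreins and skin protease inhibitors 6 were lower, and the kallikrein genes Klk5 (5.37, 16 and 3.71 FPKM) and Klk8 (5.12, 18.2 and 2.57 FPKM), proteases of shedding corneocytes, were among them.

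Sebaceous and lipid genes stood higher in the ear. Of 17 sebaceous gland genes, 10 were higher and 1 lower, with a median of 1.06. Scd1, the desaturase of sebaceous lipid, stood at 391 FPKM in Koa ear, 61.8 FPKM in WT dorsal and 539.7 FPKM in WT ear epidermis. Pparg, the nuclear receptor that directs sebocyte maturation, stood at 21.5, 2.72 and 34.7 FPKM, and Far2, which makes the fatty alcohols of wax esters, at 36.1, 3.06 and 46.2 FPKM. The sterol acyltransferase gene Soat1 (15.7, 1.65 and 24.6 FPKM), the elongase gene Elovl3 (16.3, 2.51 and 19.8 FPKM) and the melanocortin receptor gene Mc5r (6.30, 1.68 and 10.6 FPKM) had the same order. WT ear was the highest of the 3 libraries in 13 of the 17, and WT ear against the back had 11 higher and none lower (median 1.55). The exception was Fabp5, a fatty acid binding protein of keratinocytes, at 145, 295 and 185 FPKM.

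Some neighbouring lipid pathways shared part of this. Over all genes in the comparison 3.51% were higher and 8.77% lower. Of 17 fatty acid and triglyceride synthesis genes, 7 were higher and none lower (median 0.57), with fatty acid synthase (Fasn) at 36.9 FPKM in Koa ear, 14.9 FPKM in WT dorsal and 47.7 FPKM in WT ear epidermis, Elovl6 at 126, 19.1 and 122 FPKM and the regulator Srebf1 at 61.3, 28.4 and 93.3 FPKM. Of 16 peroxisomal lipid oxidation genes, 5 were higher and none lower, with Acoxl at 34.9, 2.96 and 32.2 FPKM. Cholesterol synthesis split: 3 of 18 were higher, including the lanosterol synthase gene Lss (30, 8.05 and 24.5 FPKM), 1 was lower, Sc5d (10.3, 32.6 and 10.9 FPKM), and the median was -0.07. Barrier lipid synthesis did not share it: 1 of 16 was higher, the fatty acid transporter Slc27a4 (25.5, 11.1 and 34.6 FPKM), and the median was -0.26. The lists of this paragraph other than barrier lipids were chosen after their values were seen.

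The immediate early genes had the lowest median of the lists described. All 24 of 24 were lower in Koa ear, with a median of -3.28, and their levels summed to 1450 FPKM in Koa ear, 15300 FPKM in WT dorsal and 1390 FPKM in WT ear epidermis. Fos, a subunit of the AP-1 factor, stood at 128 FPKM in Koa ear, 1905 FPKM in WT dorsal and 141 FPKM in WT ear epidermis, and Junb at 152, 1665 and 163 FPKM. Nr4a1, an orphan nuclear receptor, stood at 15.5 FPKM in Koa ear, 915 FPKM in WT dorsal and 11.8 FPKM in WT ear epidermis, a dorsal level 59.1 times that of Koa ear (55.9 to 62.5). The stress factor Atf3 stood at 37.9, 1749.8 and 22.7 FPKM, Egr1 at 134, 1174 and 127 FPKM and the AP-1 member Fosl1 at 0.320, 50.5 and 0.198 FPKM. In each of these the ears lay together and the back stood apart.

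Dermal libraries held the same contrast. Of the 24 genes, 22 were lower in Koa ear dermis than in WT dorsal dermis and none higher, with a median of -2.9. The gene median, taken back to the FPKM scale, was 39.9 in Koa ear, 547 in WT dorsal and 34.8 in WT ear epidermis, and 24.7, 253 and 23.9 in the matching dermis. Immediate early genes are known to be induced when tissue is cut and digested. How the back and the ear were handled is not given in the sources used here, and the part of handling in these values was not tested.

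**Figure D4:**
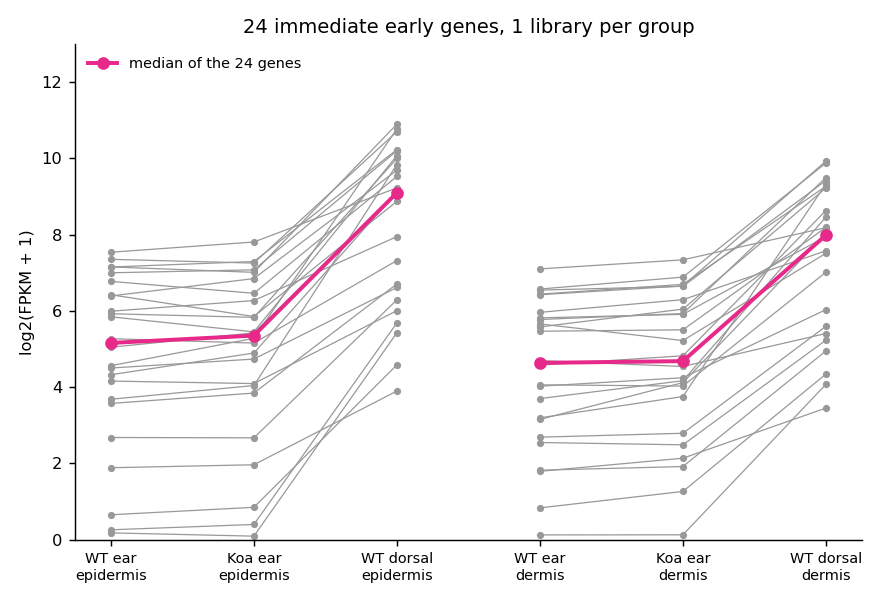
Levels of the 24 immediate early genes (grey lines, 1 per gene) and their median (pink), as log2(FPKM + 1), in 3 epidermal and 3 dermal libraries, 1 per group. In both layers the ears of either genotype lie together and the WT dorsal library lies above them.

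Other inducible genes were also lower. Of 10 MAP kinase phosphatases, chosen as a list after their values were seen, 6 were lower and none higher: Dusp5 stood at 3.74 FPKM in Koa ear, 89.7 FPKM in WT dorsal and 4.19 FPKM in WT ear epidermis and Dusp1 at 114, 825 and 83 FPKM. Of 15 heat shock chaperones, 9 were lower and none higher (median -1.11), with the small heat shock gene Hspb1 at 118 FPKM in Koa ear, 1340.4 FPKM in WT dorsal and 48.1 FPKM in WT ear epidermis, Dnajb1 at 55, 549.6 and 59.5 FPKM and the endoplasmic reticulum chaperone Hspa5 at 148, 548 and 138 FPKM. Ptgs2, the inducible prostaglandin synthase, stood at 2.38, 146 and 1.64 FPKM. Adm, the gene of the peptide adrenomedullin, stood at 1.10, 99.2 and 2.84 FPKM. Ch25h, which makes 25-hydroxycholesterol, had the widest difference of the lower genes at 0.344, 175 and 0.431 FPKM.

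Of 13 stress-response keratinocyte genes, 9 were lower and 3 higher. Krt16, the keratin of activated epidermis, stood at 22.1 FPKM in Koa ear, 136 FPKM in WT dorsal and 4.79 FPKM in WT ear epidermis, while its partner Krt6a was level with the back at 55, 55.8 and 16.9 FPKM. The calprotectin genes S100a8 (6.30, 1.34 and 2.90 FPKM) and S100a9 (12.7, 3.56 and 1.22 FPKM) and the lipocalin gene Lcn2 (7.65, 1.75 and 6.44 FPKM) were the ones higher in Koa ear. The list therefore did not move as a block.

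Ligands of the EGF receptor, which drive keratinocyte growth, were among the genes furthest apart. Epgn, the gene of epigen, stood at 2.41 FPKM in Koa ear, 295 FPKM in WT dorsal and 1.04 FPKM in WT ear epidermis, a dorsal level 122 times that of Koa ear (103 to 146). Areg stood at 0.993, 77.7 and 0.473 FPKM, Hbegf at 6.56, 104 and 4.72 FPKM and Ereg at 0.172, 2.12 and 0.227 FPKM. The receptors differed less: Egfr stood at 46, 28.3 and 52 FPKM and Erbb2 at 23.3, 22.8 and 19.4 FPKM. Errfi1, a feedback inhibitor of the receptor, stood at 22, 218 and 17.3 FPKM. Of the 12 members at 1 FPKM or more, 5 were lower and 1, the neuregulin gene Nrg4 (8.04, 2.03 and 10.7 FPKM), was higher.

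Wnt signalling genes, which start hair growth, were lower or level. Of 12 Wnt ligands and R-spondins, 5 were lower and none higher (median -0.86), with Wnt3 at 11.5 FPKM in Koa ear, 34.2 FPKM in WT dorsal and 5.66 FPKM in WT ear epidermis, Wnt5a at 2.46, 8.84 and 2.30 FPKM and the R-spondin Rspo3 at 1.67, 11.8 and 0.203 FPKM. Secreted inhibitors were lower in 3 of 7, including Wif1 (3.86, 13.2 and 2.19 FPKM). Wnt target genes were lower in 2 of 13 and higher in none. The lower ones were the growth regulator Myc (62.8, 199 and 53.9 FPKM) and the Wnt deacylase gene Notum (0.326, 1.88 and 0.123 FPKM). Notum reached 1 FPKM through WT dorsal alone, so the filter fixed its direction. Among all genes in the comparison 8.77% were lower and 3.51% higher.

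In the BMP pathway, whose signal holds follicles at rest, ligands, antagonists and targets all had lower members. The share of lower genes over the whole comparison was 8.77%. Bmp4 stood at 7.11 FPKM in Koa ear, 27.3 FPKM in WT dorsal and 6.76 FPKM in WT ear epidermis and Bmp2 at 9.51, 32.8 and 8.24 FPKM, 2 of 11 ligands. Among 12 antagonists and targets, 7 were lower and none higher (median -1.37): the target genes Id1 (80.1, 441 and 103 FPKM) and Id3 (64, 365 and 73 FPKM), which encode inhibitors of helix-loop-helix factors, and the antagonist genes Grem1 (3.70, 19.1 and 2.38 FPKM) and Fst (38.1, 142 and 25.6 FPKM) were among them.

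Of the Notch pathway, 3 of 14 were lower, the targets Hes1 (104 FPKM in Koa ear, 705 FPKM in WT dorsal and 83.3 FPKM in WT ear epidermis), Nrarp (30.5, 147 and 27.8 FPKM) and Hey1 (0.705, 2.60 and 0.445 FPKM). The receptor Notch1 (43.4, 30 and 38.1 FPKM) and the ligand Jag2 (121, 65.8 and 97.5 FPKM) were above the back by less than the size rule. FGF and Hedgehog genes were lower in 2 of 12 and 2 of 11, against 8.77% of all genes in the comparison. The lower ones were the binding protein gene Fgfbp1 (108, 521 and 101 FPKM) and Fgf18 for FGF, while Shh was among the Hedgehog genes. No FGF or Hedgehog gene was higher by the size rule, and Fgf5, the signal that ends hair growth, stood at 1.18, 0.261 and 0.0323 FPKM.

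Retinoid and eicosanoid genes differed by member. Aldh1a1, which makes retinoic acid, stood at 11.3 FPKM in Koa ear, 1.59 FPKM in WT dorsal and 2.07 FPKM in WT ear epidermis, and the retinol transporter gene Stra6 at 11.9, 4.88 and 11.4 FPKM, both higher. The binding protein genes Rbp2 (1.45, 12.3 and 0.476 FPKM), Crabp1 (0.0526, 1.94 and 0.323 FPKM) and Crabp2 (25.6, 71.8 and 19.2 FPKM) were lower. Crabp1 reached 1 FPKM through WT dorsal alone, so the filter fixed its direction. Of 13 lipoxygenases and prostaglandin synthases, 5 were lower and 1 higher, with the epidermal lipoxygenase Alox12e at 36.1, 189 and 11.2 FPKM and Alox5ap at 6.60, 2.43 and 3.46 FPKM.

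Genes of antigen presentation and immune signals were lower in Koa ear epidermis. Of 24 class I histocompatibility and antigen processing genes, 14 were lower and none higher, with a median of -2.20. B2m, the light chain shared by class I molecules, stood at 249.8 FPKM in Koa ear, 2686 FPKM in WT dorsal and 232 FPKM in WT ear epidermis, a dorsal level 10.8 times that of Koa ear (10.5 to 11.1). H2-Q7 stood at 1.97, 88.4 and 1.31 FPKM and H2-T22 at 2.43, 52.6 and 8.79 FPKM. H2-T9 stood at 8.28e-05, 18.9 and 8 FPKM, near 0 in Koa ear alone. These heavy chain genes are close paralogs and vary between mouse strains, so their single values are uncertain. WT ear against the back had 18 lower and none higher.

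Class II genes were low in the epidermis as a whole. Of 8, 7 were lower, against 8.77% of all genes in the comparison. H2-Ea-ps, H2-Eb1, H2-DMa and H2-DMb1 were among those that reached 1 FPKM through WT dorsal alone, so the filter fixed their direction. H2-Ab1 stood at 2.77 FPKM in Koa ear, 8.55 FPKM in WT dorsal and 1.95 FPKM in WT ear epidermis. The invariant chain gene Cd74 stood at 7.28, 20.9 and 3.85 FPKM in the same order. T cell and Langerhans cell genes summed to 84.3 FPKM in Koa ear and 125 FPKM in WT dorsal. Of 8, 3 were lower: Cd74, Cd3e (0.229, 1.79 and 0.121 FPKM) and Cd7 (0.101, 1.81 and 0.118 FPKM). Cd3e and Cd7 reached 1 FPKM through WT dorsal alone, so the filter fixed their direction. The other 5 differed by less than the size rule. Among these, Cd247 was above the back, with a dorsal to Koa ear ratio of 0.573 (0.499 to 0.656). The part of T cells and Langerhans cells in the class II values was not tested.

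Chemokine ligand genes were lower in 12 of 14 (median -2.16). Ccl27a, a keratinocyte chemokine that draws T cells to skin, stood at 29.6 FPKM in Koa ear, 469 FPKM in WT dorsal and 7.84 FPKM in WT ear epidermis, Cxcl10 at 1.54, 30.3 and 0.893 FPKM, Cxcl16 at 10.9, 86.5 and 7.63 FPKM and Ccl20 at 5.82, 42.6 and 7.41 FPKM. Of 24 interferon-stimulated genes, 11 were lower and none higher, with the factor Irf1 at 8.26, 68.7 and 9.69 FPKM and Isg15 at 3.48, 18.2 and 1.93 FPKM. Of the 11 Skint genes, which encode membrane proteins of keratinocytes that select epidermal gamma-delta T cells, 9 were lower. Skint7 stood at 2.49, 41.2 and 0.951 FPKM, Skint9 at 9.83, 58.5 and 2.86 FPKM and Skint3 at 3.10, 31 and 2.88 FPKM. The Skint genes form a cluster of close paralogs and were chosen as a list after their values were seen.

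**Figure D5:**
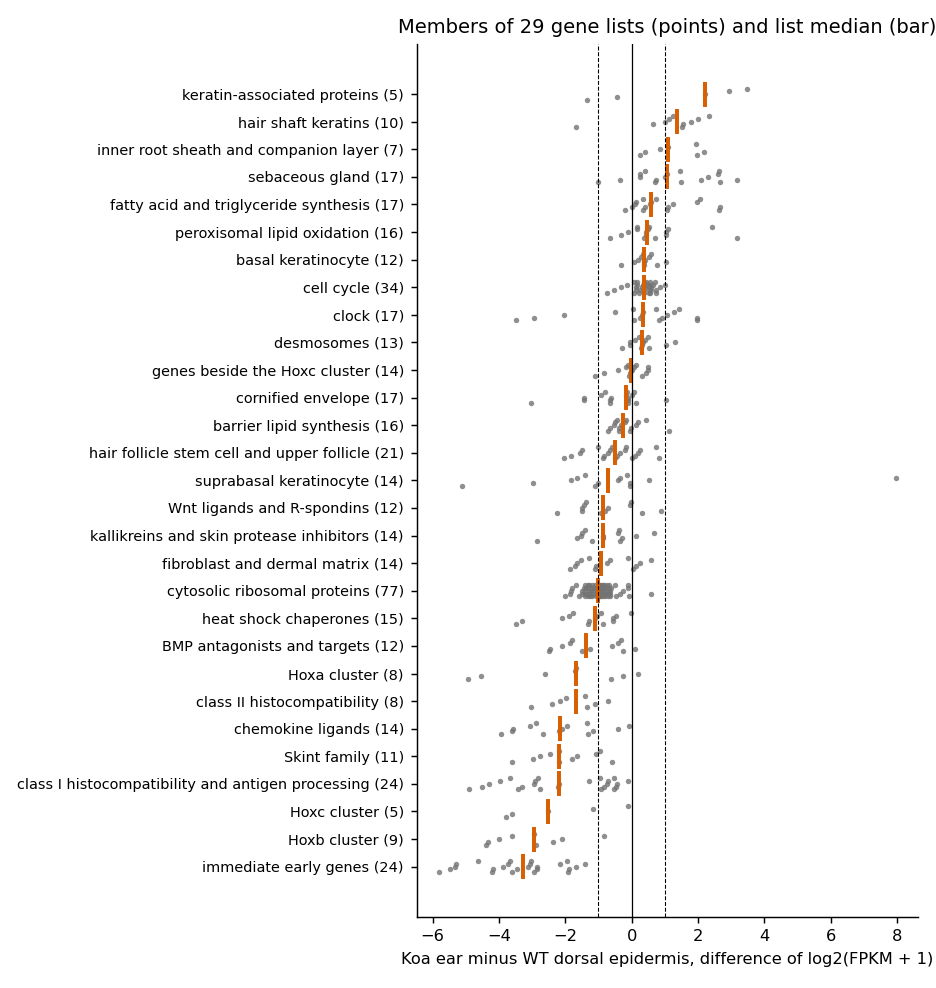
Differences, Koa ear minus WT dorsal epidermis on log2(FPKM + 1), of the members at 1 FPKM or more (points) in gene lists (rows, number of members in brackets) with the list median (bar). Dashed lines mark differences of 1 either way. Immediate early genes have the lowest median, -3.28, and the 5 keratin-associated protein genes, 3 of which passed the filter through Koa ear alone, have a median of 2.21.

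Clock genes went both ways. Of 17, 5 were higher and 3 lower (median 0.34). The output genes Hlf (40.7 FPKM in Koa ear, 9.68 FPKM in WT dorsal and 44.1 FPKM in WT ear epidermis), Tef (37.7, 13.4 and 69 FPKM) and Dbp (11.6, 4.13 and 22.1 FPKM) were higher in the ear. So were Per3 (4.57, 1.65 and 9.53 FPKM) and the repressor gene Bhlhe41 (12.8, 2.52 and 34.2 FPKM). Nfil3 (7.61, 65 and 4.93 FPKM), Per1 (13, 56.5 and 10.2 FPKM) and Bhlhe40 (17.6, 206 and 19.9 FPKM), of which Per1 is also induced by stimuli, were lower. The core activator Arntl was level, at 33.6, 32.1 and 26.9 FPKM. The time of day of collection is not given in the sources used here.

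None of 34 cell cycle genes passed the size rule, with a median of 0.39. Mki67, a marker of dividing cells, came closest at 41.8 FPKM in Koa ear, 20.4 FPKM in WT dorsal and 52.2 FPKM in WT ear epidermis.

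Ribosomal and respiratory chain genes, many with short transcripts, had lower members and none that were higher. Of 77 cytosolic ribosomal protein genes, 39 were lower and none higher, with a median of -1, and Rpl39 stood at 1299 FPKM in Koa ear, 4718 FPKM in WT dorsal and 2092 FPKM in WT ear epidermis. Of 33 respiratory chain genes, 6 were lower (median -0.67), with Cox7b at 91.2, 331 and 324 FPKM. Of the ribosomal genes with 1 RefSeq transcript, 36 of 55 had one under 1000 nt, as did 15 of 24 respiratory chain genes, the class in which all genes had a median of -0.59. None of 17 such immediate early genes did. WT ear against the back had 8 lower ribosomal genes (median -0.67) and 2 lower respiratory chain genes (median -0.08).

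Several of the genes furthest apart belong to none of these groups. Igfbp2, a binding protein of insulin-like growth factors, stood at 124 FPKM in Koa ear, 3.85 FPKM in WT dorsal and 177 FPKM in WT ear epidermis, and the matrix metalloproteinase gene Mmp3 at 90.3, 4.13 and 45 FPKM. The protease inhibitor gene Serpinb3b, one of a family of close paralogs, stood at 172, 15.7 and 209 FPKM, and the glutathione transferase gene Gsta3 at 65.1, 5.58 and 91 FPKM. All of these were high in both ears. Cwc22, a splicing factor gene, stood at 165 FPKM in Koa ear, 14.6 FPKM in WT dorsal and 17.5 FPKM in WT ear epidermis, high in Koa ear alone. Gm10136 stood at 2.28, 255 and 108 FPKM, low in Koa ear alone. Cyp1a1, the enzyme induced through the aryl hydrocarbon receptor, stood at 2.50, 38.9 and 3.73 FPKM.

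Summed markers of most other cell types were lower in the Koa ear library than in the dorsal one. The exceptions were adipocytes (27.1 against 22.5 FPKM) and Merkel cells (4.29 against 2.40 FPKM), and each sum was mostly 1 gene in Koa ear. For adipocytes it was Lpl, at 24.4 FPKM in Koa ear and 7.34 FPKM in WT dorsal. Fabp4, the other adipocyte gene at 1 FPKM or more, differed by -2.22, and the list median was -0.31. For Merkel cells it was Krt8, at 3.08 and 1.36 FPKM, the only one of its list at 1 FPKM or more. Neither sum shows a rise across the markers of its cell type. Fibroblast and dermal matrix genes were lower in 7 of 14 (median -0.91), with the matrix gene Dpt at 0.315 FPKM in Koa ear, 2.76 FPKM in WT dorsal and 0.397 FPKM in WT ear epidermis and at 553 and 891 FPKM in Koa ear and WT dorsal dermis. Of 8 dermal papilla genes 5 were lower, and these were the signalling and binding protein genes Bmp4, Rspo3, Wif1, Notum and Crabp1 given above. Endothelial genes summed to 2.71 and 6.10 FPKM, macrophage and neutrophil genes to 11.5 and 16 FPKM, and red blood cell genes to 1.37 and 9.80 FPKM in Koa ear and WT dorsal. None of 5 melanocyte genes passed the size rule. The part of such cells in the Wnt, BMP and immune differences was not tested.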

How the data were processed

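The values are FPKM per gene symbol, computed by the authors and deposited as 1 table of 7 libraries, 1 per group. The tools were TopHat2 2.0.13 and Cufflinks 2.2.1, per the submitters' processing notes, which name the builds GRCm38 and mm9 without a role, so printed positions are those of RefSeq for GRCm38.p6, matched by symbol for 20004 of 22552 symbols. The column headers of 2 libraries hold spelling errors and were assigned by sample title. The WT tail dermis library was not used here.

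Genes with at least 1 FPKM in either library were kept, a pseudocount of 1 was added before log2, and a difference of at least 1 was called higher or lower. Python 3.11.15 was used. Depth was recovered from FPKM steps, which for a gene with a whole number of fragments depend on its transcript length minus 200 nt. Between 66.3% and 72.9% of the low values lay within 0.05 fragments of a whole number. Ratios carry exact (Clopper-Pearson) 95% intervals, which cover counting error only, and fragments are estimates.

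Genes named are every Hoxc gene, the 10 widest in each direction with at least 5 FPKM that are not short RNAs, and, per list, the 6 members furthest apart, with at least 1 from each direction past the size rule. Other members are named for their role, after their values were seen. Some genes that the rule gives are left out of the text. The comparison and the 66 lists were chosen with earlier results of these data known, and 6 of the lists were added after the values were seen. Alternatives were pseudocounts of 0.1 and 5, filters, exclusion of short RNAs, 2 rescalings and a length minimum.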

Additional observations from a re-analysis of the deposited data

Results flagged for a closer look

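For 11 named genes the Koa ear library lay on one side of the WT dorsal library in epidermis and on the other side in dermis, each time by at least 1 on the log2(FPKM + 1) scale. The difference between the layers was not tested, since each group has 1 library. Epidermal values are given first, then dermal ones.

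Wif1, Rspo3, Wnt11 and Notum, genes of Wnt signalling, were lower in Koa ear epidermis and higher in Koa ear dermis. They were picked for this opposite direction and do not stand for the pathway. In epidermis 7 of 12 Wnt ligands and R-spondins and 11 of 13 Wnt targets differed by less than the size rule. Wif1, a secreted Wnt inhibitor, differed by -1.55 in epidermis and by 3.21 in dermis, where it stood at 244 FPKM in Koa ear and 25.6 FPKM in WT dorsal. Rspo3 differed by -2.26 and 1.07, Wnt11 by -1.39 and 1.15, and Notum by -1.12 and 1.14. Crabp1, the retinoic acid binding protein gene, differed by -1.48 and 1.48. In epidermis Notum and Crabp1 reached 1 FPKM through WT dorsal alone, so the filter fixed their direction there. The Koa ear value of Crabp1 rested on 1 fragment.

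Antigen presentation and mesenchymal genes followed. Cd74, the class II invariant chain gene, differed by -1.40 and 1.07, H2-Ab1 by -1.34 and 1.12, and Vim, the mesenchymal intermediate filament gene, by -1.11 and 1.26. In dermis Vim stood at 1803 FPKM in Koa ear and 753 FPKM in WT dorsal.

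The reverse held for S100a8 and S100a9, the calprotectin genes, and for Acacb, an acetyl-CoA carboxylase of lipid metabolism. S100a8 differed by 1.64 in epidermis and -1.36 in dermis, S100a9 by 1.59 and -1.33, and Acacb by 2.05 and -1.12.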

How the results depend on the processing

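The counts of genes past the size rule depend on the pseudocount. At a pseudocount of 0.1, 700 genes were higher and 1479 lower, and at a pseudocount of 5, 176 were higher and 671 lower. Over genes with 1 RefSeq transcript of at least 1000 nt, an alternative added after the data were seen that tests fewer genes, 193 were higher and 452 lower. The other settings stayed within 1.5 times: 347 and 910 with a filter at 5 FPKM, 370 and 1014 without short RNAs, 476 and 1024 with equal upper quartiles, and 415 and 1126 with the median difference set to 0. Higher genes made up 28.6% of those past the rule as reported, 31.7% with equal upper quartiles and 26.9% with the median at 0. No list median or named gene past the rule changed sign under the settings run. Medians near 0 did for lists with none or few members past the rule, among them genes beside the Hoxc cluster (-0.05 to 0.02), Wnt targets (-0.08 to 0.02), BMP and TGF-beta ligands (-0.22 to 0.03), FGF (-0.15 to 0.08) and Notch (-0.10 to 0.05). The median of macrophage and neutrophil genes, -0.87 as reported with 3 of 5 past the rule, ranged from -2.49 to 0.61. At a pseudocount of 5, 62 of 341 named genes no longer passed the rule, and at 0.1 another 21 did. Leaving out a replicate and a paired analysis were not possible because each group has 1 library. The depth, 35.3 and 31.6 M (mega) fragments, limits genes of few fragments, such as Hoxc10 to Hoxc12.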
